A study of Rattus norvegicus with 9 samples.

Results

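Krüppel-like factors (KLFs) are transcription factors that share a set of zinc fingers at the C-terminal end and bind CACCC and GC-rich boxes near gene starts. Described here are the 9 KLF genes Klf2, Klf3, Klf4, Klf5, Klf6, Klf9, Klf10, Klf13 and Klf15, taken by symbol from the 17145 rows of each of 2 deposited tables. They were measured in the ileum, the distal small bowel, 1 month after surgery. All rats were of the strain Otsuka Long-Evans Tokushima fatty, in which a cholecystokinin receptor does not function and obesity and diabetes develop. With 3 samples each, the groups are Roux-en-Y gastric bypass (RYGB) with FDG decreased, RYGB with FDG increased, and sham surgery. RYGB leads food from a small stomach pouch into a limb of the jejunum. FDG is taken as fluorodeoxyglucose, a glucose analogue used in imaging; the labels do not spell it out. The labels give no age or sex of the rats and do not say whether samples came from separate animals, so p-values cover only the spread between these samples.

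One table, called the RYGB table here, holds the FDG-decreased and FDG-increased groups. The other, called the sham table, holds the FDG-increased and sham groups, and each was scaled on its own. The values are taken as FPKM, that is, fragments per transcript length and per mapped fragments, though no header states the unit. On that reading levels of different genes can be compared. Of the FDG-increased columns, 2 occur in both tables up to a factor (1.023 and 1.020, with 99.985% and 99.941% of genes within 1% of it) but under other replicate numbers, which leaves 10 distinct libraries. The FDG-increased replicate 3 of the RYGB table and the FDG-increased replicate 1 of the sham table each occur in 1 table. The labels list 3 FDG-increased samples, so 1 of the 4 FDG-increased libraries has no sample label of its own, and which one is not known. By the labels all 3 sham samples ran in lane 7, while of the 6 RYGB samples 2 ran in lane 7, 3 in lane 4 and 1 in lane 5. Lanes of RYGB table columns are read from the samples of the same name. For its FDG-increased columns this is not certain, since the sham table numbers shared libraries otherwise. The FPKM of the libraries summed to 465697 to 864511, and replicate 2 of FDG-decreased and of FDG-increased ileum in the RYGB table had the highest, at 827636 and 847267. That FDG-increased library is replicate 3 of the sham table, where it sums to 864511. Sham replicate 1 stood apart. Its mean log2 level of 4 ileal bile acid genes was 4.51, against 7.33 to 10.13 in the other 9 libraries, and its mean of 5 genes of the upper intestine was 5.53, against 1.56 to 3.65.

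KLFs divide broadly into members that cells switch on quickly and members tied to differentiation or hormones. Among the first, Klf2 is induced by flow in blood vessel linings and kept on in resting T cells, Klf4 and Klf6 are induced by growth factors and injury, and Klf10 by transforming growth factor beta. Klf4 also has a role in the maturation of goblet cells, the mucus-secreting cells of the gut. Among the second, Klf5 marks the dividing cells of intestinal crypts, Klf3 is a repressor that recruits the corepressor CtBP, Klf9 and Klf15 respond to glucocorticoids, and Klf13 was first known as a regulator of a T cell chemokine. All 9 genes passed the level filter in both tables.

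Promoter windows from RefSeq (build GRCr8, 250 bases before to 50 after the start) were at hand for Klf3, Klf4, Klf5, Klf6, Klf9 and Klf15. For Klf3, Klf4 and Klf15 the start used lies inside the annotated gene. The windows of Klf6 and Klf9 are shown because these 2 genes did not overlap between FDG-increased and sham ileum, one higher and one lower. Capitals mark the motifs searched on both strands. In Klf6 (chr17:69458429-69458728, minus strand) they are, from 5′ to 3′, a CArG box, the site of serum response factor, with its first base at -201 from the start, a GC box (GGGCGG) at -76 and an E box (CACGTG) at -56. In Klf9 (chr1:230126396-230126695, plus strand) they are a match to a loose AP-1 pattern (TGANTCA, any base at N) at -122 and the core of the cAMP response element (TGACG) at -79. The base at N in that match is A.
Klf6: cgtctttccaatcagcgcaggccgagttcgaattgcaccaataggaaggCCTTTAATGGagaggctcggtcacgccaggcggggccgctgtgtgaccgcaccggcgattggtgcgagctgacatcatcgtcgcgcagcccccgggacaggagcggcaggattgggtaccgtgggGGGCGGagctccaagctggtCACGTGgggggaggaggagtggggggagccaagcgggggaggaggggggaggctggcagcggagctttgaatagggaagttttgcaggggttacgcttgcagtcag
Klf9: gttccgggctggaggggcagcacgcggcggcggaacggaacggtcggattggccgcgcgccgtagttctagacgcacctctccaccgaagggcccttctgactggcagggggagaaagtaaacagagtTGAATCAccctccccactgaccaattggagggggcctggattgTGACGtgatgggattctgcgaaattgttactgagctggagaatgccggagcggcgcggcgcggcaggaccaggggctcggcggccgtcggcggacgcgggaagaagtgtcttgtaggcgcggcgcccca
Of 33465 RefSeq promoter windows of the same length, 1.64% hold a CArG box, 6.42% the E box, 33.1% the GC box, 7.33% the loose AP-1 pattern and 21.2% the TGACG core. The CArG box was searched with A or T at its inner positions. The CACCC box itself (CCACCC), held by 29.4% of windows, was found in the Klf3 window, 3 times, and in none of the other 5. A match is a description of letters and shows no binding.

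The 9 genes spanned a wide range of levels, with Klf5 highest in every one of the 10 distinct libraries. On the scale of the sham table, its median was 225.5 FPKM (range 171.1 to 375.6), and it made up 34.9% to 48.6% of the summed FPKM of the 9 genes. Klf6 followed at 90.2 FPKM (75.1 to 368), Klf4 at 75.1 FPKM (39.9 to 136.4) and Klf3 at 51.5 FPKM (40.8 to 117.5). The order of these middle members was not fixed: Klf6 exceeded Klf4 in 9 of 10 libraries, and Klf4 exceeded Klf3 in 7 of 10. Klf9 had a median of 19.7 FPKM (12.5 to 26.5) and Klf10 one of 16.1 FPKM (12.2 to 32.6), and each was the higher one in 5 of 10 libraries. Klf13 stood at 8.22 FPKM (3.75 to 13.5) and exceeded Klf15, at 5.52 FPKM (3.33 to 10.1), in 8 of 10 libraries. Klf2 was lowest, at 2.54 FPKM (0.303 to 5.11), and its highest value was 16.9 times its lowest, against 2.12 to 4.90 times for the other 8.

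**Figure D1:**
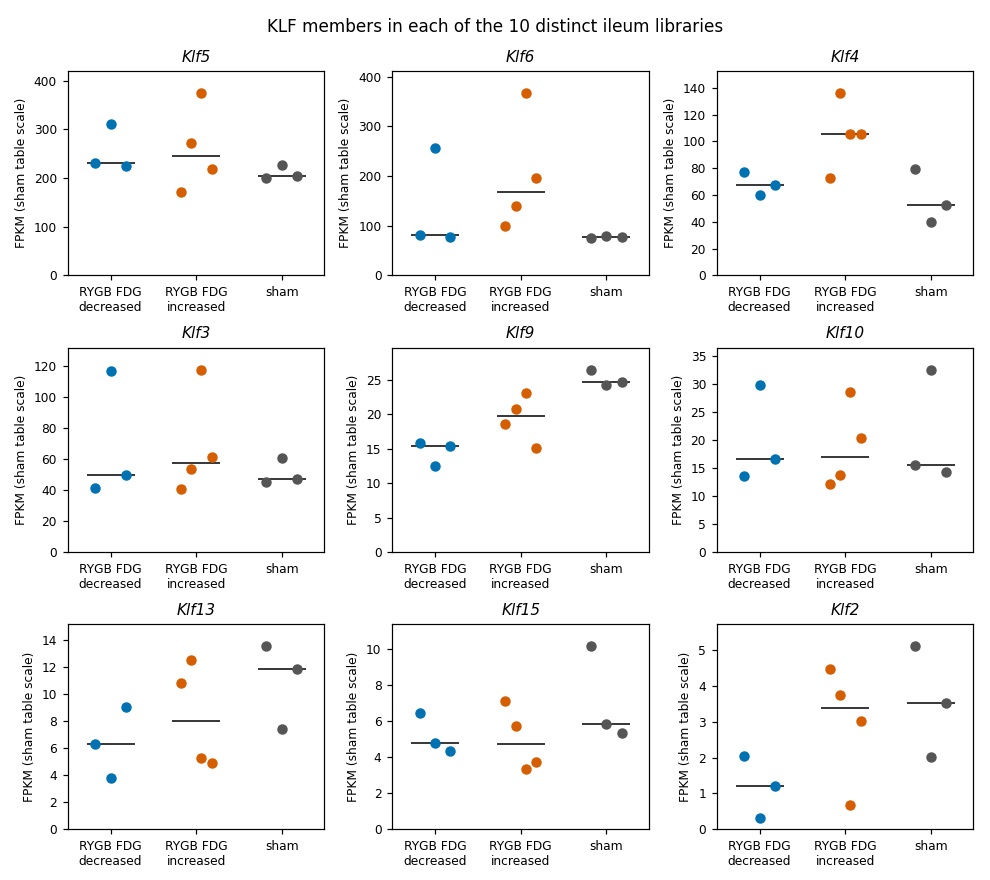
FPKM of each KLF gene in the 10 distinct libraries, on the scale of the sham table, in FDG-decreased (n = 3), FDG-increased (4 libraries, for 3 labelled samples) and sham (n = 3) ileum; points are libraries and bars are medians. Klf9 lies lower in all RYGB libraries than in sham ileum, and Klf6 lies higher in all FDG-increased libraries than in sham ileum.

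Klf4 and Klf6 fell in FDG-decreased ileum against FDG-increased ileum when libraries were paired by replicate number, and no member was called without the pairing. Klf4 was 75.4, 58.4 and 65.7 FPKM in FDG-decreased replicates 1 to 3, against 133.3, 103.5 and 103.4 FPKM in FDG-increased replicates 1 to 3. These groups did not overlap, and the paired ratios were close to each other, at 0.566, 0.564 and 0.636. The log2 difference was -0.76 on the log2(FPKM + 1) scale. With limma and the replicate block its SE was 0.129 and the Benjamini-Hochberg adjusted p was 0.0210. Without the block the SE was 0.318 and the limma adjusted p was 1.000 (unadjusted p by limma 0.0454). Klf6 was 80.0, 250.6 and 76.3 FPKM in FDG-decreased replicates 1 to 3, against 136.2, 360.6 and 191.5 FPKM in FDG-increased replicates 1 to 3. The groups overlapped through replicate 2, which was the highest library of both, but within each pair the FDG-decreased library was lower, with ratios of 0.587, 0.695 and 0.398. The log2 difference was -0.87, with an SE of 0.163 and a limma adjusted p of 0.0359 with the block, against an SE of 0.589 and a limma adjusted p of 1.000 without it. Its size rested on single libraries: without the block it was -1.42 without FDG-decreased replicate 2 and -0.48 without FDG-increased replicate 2.

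The blocked calls depended on settings. Leaving out pair 1 ended both, with limma adjusted p of 0.335 for Klf4 and 0.280 for Klf6; both genes stayed lower. Klf6 was also not called with the block once libraries were shifted to the same median (limma adjusted p = 0.0912) or quantile normalized (0.0930). Neither was called with the block when no filter on low values was used (limma adjusted p of 0.0911 for Klf4 and 0.162 for Klf6) or when limma was run without trend and robust variances (0.0645 and 0.0974). Within lane 7, which by column name held 1 library of each group, the log2 difference was -0.81 for Klf4 and -0.76 for Klf6. Within lane 4, which by column name held 1 FDG-decreased and 2 FDG-increased libraries, it was -0.81 for Klf4 and -0.07 for Klf6. By column name pair 1 was in lane 7 and pair 2 in lane 4, so for these lane and pair cannot be told apart.

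The other early-induced members did not pass. Klf2 was 2.01, 0.297 and 1.19 FPKM in FDG-decreased replicates 1 to 3, against 3.67, 0.672 and 2.96 FPKM in FDG-increased replicates 1 to 3. It was lower in each pair, by ratios of 0.547, 0.442 and 0.401, while the groups overlapped through the low replicate 2. The log2 difference was -0.62, with a limma adjusted p of 0.197 with the block and 1.000 without it; without pair 2 the blocked limma adjusted p was 0.0351. Without the block the difference was -0.29 without FDG-decreased replicate 2 and -1.07 without FDG-increased replicate 2. Beside it, 5 of 9 T and NK cell genes were higher in FDG-decreased ileum. So were 5 of 7 genes of a list that mixes endothelial markers with genes known as KLF targets there, and which therefore does not stand for the number of endothelial cells. That endothelial list summed to 89.9 to 137.5 FPKM in FDG-decreased ileum, against 83.8 to 154.2 FPKM in FDG-increased ileum. The T and NK cell list summed to 26.3 to 142.6 FPKM in FDG-decreased ileum, against 18.2 to 164.5 FPKM in FDG-increased ileum. Fewer cells of a type and less RNA per cell cannot be told apart in whole tissue, and the part of T and NK cells in Klf2 was not tested. Klf10 was 13.3, 29.1 and 16.3 FPKM in FDG-decreased replicates 1 to 3, against 13.5, 28.03 and 19.9 FPKM in FDG-increased replicates 1 to 3. Its values followed the replicate number, with ratios of 0.990, 1.04 and 0.817 within pairs and a log2 difference of -0.08 (SE 0.144 with the block; limma adjusted p = 0.965).

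Of the 4 early-induced members, 2 were called lower with the block, against 0.689% of the 10739 genes tested called lower, 0.447% called higher and 1.14% called in either direction. Without the block limma called 0 genes, and 110 (1.02%) had an unadjusted p under 0.05, of which Klf4 was the one member; 0.661% of genes were lower and 0.363% higher at that threshold. The median log2 difference of these 4 genes was -0.69, against 0.02 over all genes tested. Of all 9 members, 4 were lower in every pair, where 12.7% of all genes were, and 1 was higher in every pair, where 17.2% were. Groups did not overlap for 1 of 9 members, against 3.2% of all genes in either direction (1.26% lower and 1.95% higher). Members and their roles were chosen with earlier results of these data known, so these shares are a description and no test of enrichment.

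**Figure D2:**
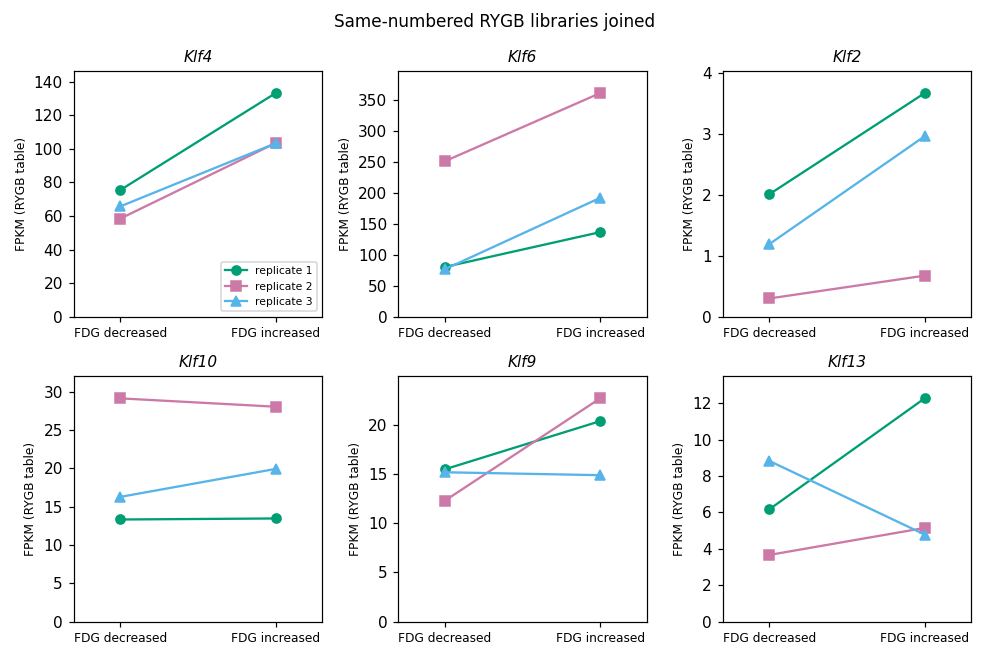
FPKM in the RYGB table for 6 KLF genes, with FDG-decreased ileum at the left and FDG-increased ileum at the right; each line joins libraries of the same replicate number. Lines rise to the right in all 3 pairs for Klf4, Klf6 and Klf2, lie nearly flat for Klf10 in pairs 1 and 2 and rise in pair 3, and go in unlike directions for Klf9 and Klf13.

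The differentiation and hormone members had no call in this comparison. Klf9 was 15.5, 12.3 and 15.2 FPKM in FDG-decreased replicates 1 to 3, against 20.3, 22.7 and 14.9 FPKM in FDG-increased replicates 1 to 3. It was lower in pairs 1 and 2 and about level in pair 3, at a ratio of 1.02, with a log2 difference of -0.39 (SE 0.176 with the block; limma adjusted p = 0.519). Klf13 had paired ratios of 0.503, 0.712 and 1.84, so that pair 3 went against the others. Klf15 was higher in each pair, by ratios of 1.13, 1.43 and 1.17, with a log2 difference of 0.25 (SE 0.162 with the block; limma adjusted p = 0.760). Without the block it was 0.11 without FDG-decreased replicate 1 and 0.43 without FDG-increased replicate 1. Klf3 was lower in each pair, though in pair 2 only by a ratio of 0.992. Klf3 stood at 114.1 FPKM in FDG-decreased replicate 2 and 115.1 FPKM in FDG-increased replicate 2, and at 40.3 to 59.7 FPKM in the other 4 libraries of the table. Klf5, the crypt factor, averaged 250 ± 47.2 FPKM in FDG-decreased ileum and 283 ± 78.2 FPKM in FDG-increased ileum (SD, n = 3 each), with a log2 difference of -0.16 (limma adjusted p = 0.847 with the block). The median log2 difference of these 5 genes was -0.17.

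Members differed in what their values followed. Over the 6 libraries of the RYGB table, the replicate number took 96.5% of the sum of squares of Klf10, 94.7% of Klf3, 86.3% of Klf5, 75.5% of Klf2, 74.5% of Klf15 and 67.6% of Klf6. For Klf4 it took 14.2%, and the FDG group took 84.8%, the highest share of the 9. For Klf6 and Klf2 the FDG group took 28.2% and 22.2%. For Klf9 the FDG group took 49.4% and the replicate number 11.2%. The replicate number has more levels than the FDG group, which tends to raise its share. Over all genes past the level filter, deviations from group means also correlated between same-numbered libraries (0.85, 0.76 and 0.77). Shares over all genes are not given, so high replicate shares are not shown to be particular to these members. Klf3, Klf5, Klf6 and Klf10 were highest in replicate 2 of both groups, the libraries with the highest FPKM sums; the part of that sum in their levels was not tested.

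**Figure D3:**
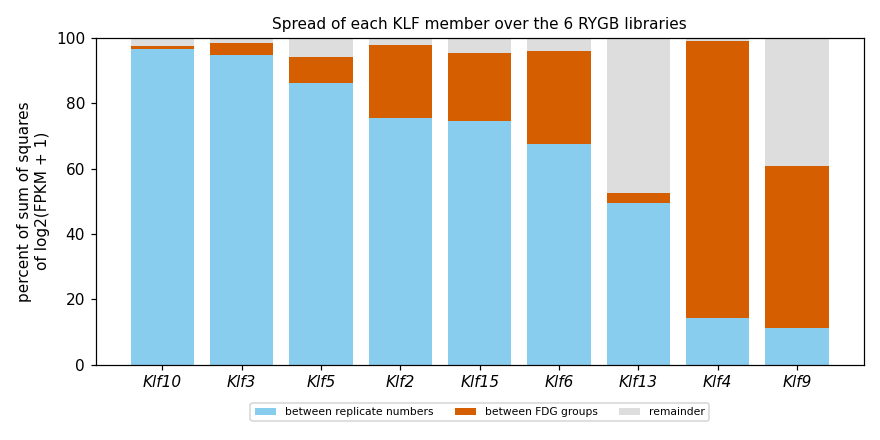
Share of the sum of squares of log2(FPKM + 1) over the 6 RYGB libraries that lies between replicate numbers, between the FDG groups, and in the remainder, for each KLF gene. Klf4 has most of its spread between the FDG groups (84.8%), and Klf10 and Klf3 have most of theirs between replicate numbers (96.5% and 94.7%).

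Against sham ileum no member passed the test over all genes. Klf6 was higher and Klf9 lower in FDG-increased ileum without overlap, that is, 2 of 9 members, against 15.1% of the 10801 genes tested, a share close to the background. Klf6 was 98.7, 139.4 and 368 FPKM in FDG-increased replicates 1 to 3, against 75.1, 78.6 and 76.9 FPKM in sham replicates 1 to 3. The sham values lay within a few FPKM of each other while the FDG-increased values were spread widely, with means of 202 ± 145 FPKM in FDG-increased ileum and 76.9 ± 1.79 FPKM in sham ileum (SD, n = 3 each). The log2 difference was 1.15 (SE 0.474), with a limma adjusted p of 0.626 and an unadjusted p by limma of 0.0382. With quantile normalization it was 0.75, and without FDG-increased replicate 3, the library with the highest FPKM sum, it was 0.60; without sham replicate 1 it was 1.13. Against the sham libraries, all of lane 7, FDG-increased replicate 1 alone gave 0.36, but the lane of that column is not known. The FDG-increased column that matches the RYGB table library named as the lane 7 sample gave 0.85 alone. Klf6 in the FDG-increased library that occurs in the RYGB table alone was 195.7 FPKM on the sham table's scale, above all 3 sham libraries.

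Klf4 was 73.0, 136.4 and 105.6 FPKM in FDG-increased replicates 1 to 3, against 79.2, 39.9 and 52.2 FPKM in sham replicates 1 to 3. The groups overlapped through FDG-increased replicate 1 and sham replicate 1, and without either of these libraries they did not. The log2 difference was 0.88 (SE 0.377; limma adjusted p = 0.628, unadjusted p by limma 0.0448), and 1.14 without sham replicate 1, the library low in ileal genes. With FDG-increased replicate 1 alone, whose lane is not known, the difference was 0.41. With the FDG-increased column that matches the RYGB table library named as the lane 7 sample alone it was 1.297. The FDG-increased library outside this comparison held 105.6 FPKM of Klf4 on the sham table's scale, above all 3 sham libraries. Klf10 was 12.2, 13.8 and 28.6 FPKM in FDG-increased replicates 1 to 3, against 15.5, 32.6 and 14.3 FPKM in sham replicates 1 to 3. Each group had 1 high library, and the difference was -0.19 (SE 0.412; limma adjusted p = 0.944). Klf2 was 4.48, 3.75 and 0.685 FPKM in FDG-increased replicates 1 to 3, against 5.11, 2.01 and 3.53 FPKM in sham replicates 1 to 3, again with overlap (-0.31, SE 0.458; limma adjusted p = 0.911).

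Klf9 was 18.6, 20.8 and 23.1 FPKM in FDG-increased replicates 1 to 3, against 26.5, 24.2 and 24.7 FPKM in sham replicates 1 to 3. All FDG-increased values lay below all sham values, by a small margin: the log2 difference was -0.26 (SE 0.244; limma adjusted p = 0.828), and -0.23 without sham replicate 1. Klf15 was 7.09, 5.70 and 3.33 FPKM in FDG-increased replicates 1 to 3, against 10.1, 5.83 and 5.34 FPKM in sham replicates 1 to 3, a difference of -0.35 (SE 0.325; limma adjusted p = 0.831). The highest value of Klf15 was in sham replicate 1, and the difference was -0.093 without that library and -0.090 without FDG-increased replicate 3. Klf3, Klf5 and Klf13 differed by 0.33 (SE 0.414), 0.30 (SE 0.364) and -0.22 (SE 0.352), and their groups overlapped. Klf5 was 171.1, 271.6 and 375.6 FPKM in FDG-increased replicates 1 to 3, against 199.7, 227.1 and 203.8 FPKM in sham replicates 1 to 3, so that FDG-increased ileum held both the lowest and the highest value. The difference of Klf5 was 0.039 without FDG-increased replicate 3 and 0.60 without FDG-increased replicate 1. With quantile normalization its direction flipped, to -0.15.

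By direction, groups did not overlap for 1 of 9 members higher, against 10.7% of all genes, and 1 of 9 lower, against 4.44%. Of all genes 0.037% (4 genes) passed limma with Benjamini-Hochberg adjustment, and 0 of 9 members did. At an unadjusted p under 0.05 by limma there were 2 of 9 members, Klf4 and Klf6, both higher, against 7.84% of genes in either direction, 6.15% higher and 1.69% lower. The median difference was 0.35 for the early-induced members and -0.22 for the differentiation and hormone members, against 0.13 over all genes. Beside these values, markers of other cells lay on both sides, and limma called 0 of them with adjustment. Of T and NK cell genes 8 of 9 were higher, and all 10 in the table summed to 98.6 to 167.9 FPKM in FDG-increased ileum, against 41.1 to 72.5 FPKM in sham ileum. Of macrophage genes 6 of 7 were higher, summing to 3158 to 7763 FPKM in FDG-increased ileum, against 1808 to 3690 FPKM in sham ileum. At an unadjusted p under 0.05 by limma there were 7 T and NK cell genes and 3 macrophage genes. Of adipocyte genes 1 was higher and 5 were lower (median -1.14), of fibroblast genes 1 and 3 (median -0.17), and of smooth muscle genes 3 and 3 (median 0.02). None of the T and NK cell or macrophage markers was at 0 throughout. Their part in the KLF values was not tested.

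**Figure D4:**
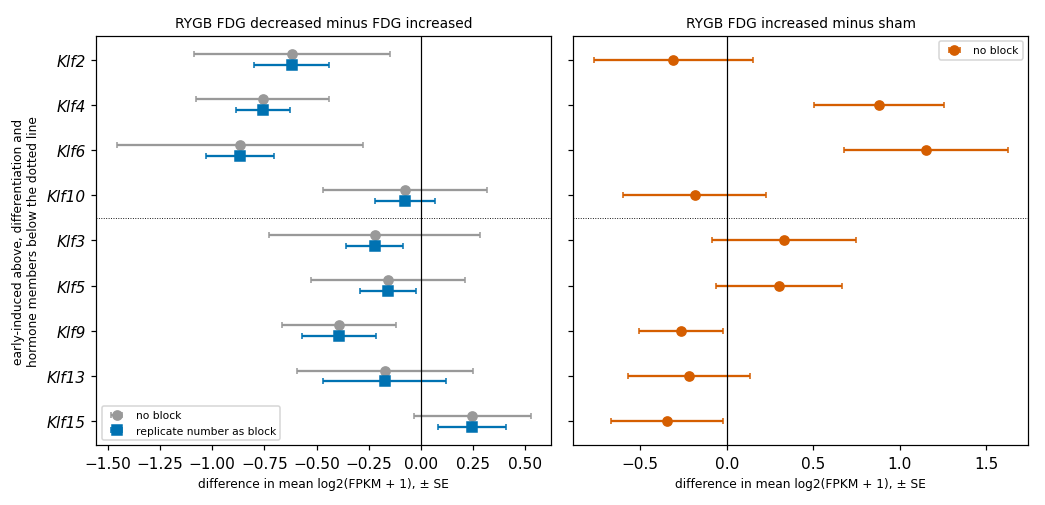
Log2 difference ± SE of each KLF gene, left for FDG-decreased minus FDG-increased ileum without and with the replicate number as a block, right for FDG-increased minus sham ileum without it (n = 3 per group). Klf4 and Klf6 lie left of 0 in the left panel and right of 0 in the right panel, and Klf9 lies left of 0 in both; the panels share 2 FDG-increased libraries.

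FDG-decreased and sham ileum stand in separately scaled tables, so they were set side by side without a test, after the RYGB table was multiplied by 1.022. Klf9 was 15.8, 12.5 and 15.5 FPKM in FDG-decreased replicates 1 to 3, against 26.5, 24.2 and 24.7 FPKM in sham replicates 1 to 3. Its means were 14.6 ± 1.799 FPKM in FDG-decreased ileum and 25.1 ± 1.21 FPKM in sham ileum (SD, n = 3 each), a ratio of 0.581. With the 4 FDG-increased libraries, at 15.2 to 23.1 FPKM, all 7 RYGB libraries lay below all 3 sham libraries in Klf9. That held for 0.758% of 10825 genes, and 0.915% lay above in the same way. Klf9 was the one member of 9 whose FDG-decreased and sham groups did not overlap, where 1.84% of genes were lower and 3.4% higher in that way. Klf6 was 81.7, 256 and 77.9 FPKM in FDG-decreased replicates 1 to 3, and replicate 3 fell among the sham libraries, at 75.1 to 78.6 FPKM. Klf4, at 77.1, 59.7 and 67.1 FPKM in FDG-decreased replicates 1 to 3, fell among the sham libraries, at 39.9 to 79.2 FPKM. Klf2 was 2.05, 0.303 and 1.21 FPKM in FDG-decreased replicates 1 to 3, against 2.01 to 5.11 FPKM in sham ileum; with values as deposited, without the scaling, these groups did not overlap. Klf13 had means of 6.36 ± 2.64 FPKM in FDG-decreased ileum and 10.9 ± 3.16 FPKM in sham ileum (SD, n = 3 each) and overlapped.

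Of 8 further KLF genes looked for, 6 were in the tables and 4 passed the level filter. Klf7 (3.41 to 7.44 FPKM in the RYGB table), Klf11, Klf12 and Klf16 had no call in either comparison or with the block, and their groups overlapped. Klf11, a repressor close in sequence to Klf10, was 6.21, 13.4 and 5.73 FPKM in FDG-decreased replicates 1 to 3, against 5.98, 7.77 and 4.54 FPKM in FDG-increased replicates 1 to 3. Klf7, Klf11 and Klf12 were each higher in FDG-decreased ileum in every pair, as 17.2% of all genes were. For Klf7 pair 1 was about level, at 3.42 FPKM in FDG-decreased and 3.41 FPKM in FDG-increased ileum. The log2 differences of Klf7, Klf11 and Klf12 were 0.31, 0.35 and 0.25 (Klf11 -0.0013 without FDG-decreased replicate 2), while Klf16 differed by -0.24. Against sham ileum the FDG-increased values of Klf7, Klf11, Klf12 and Klf16 differed by -0.26, -0.39, -0.03 and 0.20; that of Klf12 flipped to 0.0099 with a pseudocount of 0.1. Klf1, the red cell factor, stayed at or below 0.628 FPKM, and Klf14 at or below 0.0511 FPKM. Of the related Sp factors 3 passed the level filter, and Sp2 was lower without overlap in FDG-increased ileum, at 2.46 ± 0.910 against 4.15 ± 0.388 FPKM in sham ileum (SD, n = 3 each; limma adjusted p = 0.626).

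Early genes outside the family lay on the same sides as Klf4 and Klf6. Of 16 such genes, 10 were called lower in FDG-decreased against FDG-increased ileum with the block. Limma called 0 without it, with 8 at an unadjusted p under 0.05, and all 16 were lower in every pair, with a median log2 difference of -1.16. Against sham ileum all 16 were higher in FDG-increased ileum, 3 of them called, with a median of 1.86. These are among the genes already known to separate these libraries, so they are no independent support. Those called against sham ileum were Fosb, Atf3 and Nr4a1. Those called between the FDG groups with the block were Atf3, Btg2, Dusp1, Egr1, Egr2, Fosb, Ier3, Jun, Junb and Zfp36. Atf3, a stress-induced factor, had 5.69 ± 3.03 FPKM in FDG-decreased ileum and 88.001 ± 61.2 FPKM in FDG-increased ileum (SD, n = 3 each). By pair, the mean log2 level of the 16 genes was 3.91, 3.33 and 2.99 in FDG-decreased replicates 1 to 3, against 5.97, 5.24 and 4.02 in FDG-increased replicates 1 to 3 (sham table scale). That of the 4 early-induced KLF genes was 4.53, 4.81 and 4.42 in FDG-decreased replicates 1 to 3, against 5.09, 5.23 and 5.20 in FDG-increased replicates 1 to 3. Sham replicates 1 to 3 had 4.81, 4.58 and 4.53 for these 4 genes. FDG-increased replicate 1 of the sham table, which is in none of these pairs, had 4.76, below sham replicate 1. Klf10 and Klf2, unlike the 16 genes, were lower in mean in FDG-increased than in sham ileum, within the spread.

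Regulators upstream of the family showed few differences. Of 9 SRF and CREB factors, 1 was called, Crem, a cAMP-responsive factor, lower in FDG-decreased ileum with the block. Crem was 2.14, 6.43 and 3.25 FPKM in FDG-decreased replicates 1 to 3, against 6.49, 25.3 and 7.88 FPKM in FDG-increased replicates 1 to 3 (log2 difference -1.38; limma adjusted p with the block 0.00555). Against sham ileum Crem and Srf, the factor that binds CArG boxes, were higher in FDG-increased ileum without overlap, by 1.27 (SE 0.513) and 0.81 (SE 0.286), with limma adjusted p of 0.623 and 0.562. None of 4 tested genes of the ERK5 and MEF2 route to Klf2 and Klf4 was called or separated without overlap in either comparison. Mapk7, the gene of ERK5 itself, was at 0 FPKM throughout and was not tested, and Mef2c was not among the symbols. None of 10 genes of the transforming growth factor beta and SMAD route to Klf10 and none of 9 KLF cofactors was called or separated either. Calls were by limma with Benjamini-Hochberg adjustment, the block included. Without the block 0 genes of the ERK5 and MEF2, transforming growth factor beta and cofactor lists had an unadjusted p under 0.05 by limma. Of the SRF and CREB factors, 2 did against sham ileum and 1 between the FDG groups.

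Of 8 genes tied to glucocorticoids, 5 lay lower in FDG-increased than in sham ileum, with a median of -0.39 against 0.13 over all genes. The 8 include the receptor Nr3c1 and the steroid-converting enzymes Hsd11b1 and Hsd11b2, so the list is not a readout of the response alone. Limma called 0 of them, and 2 had an unadjusted p under 0.05 by limma. Fkbp5, a cochaperone induced by the glucocorticoid receptor, was 4.93, 7.67 and 10.6 FPKM in FDG-increased replicates 1 to 3, against 20.3, 14.4 and 11.3 FPKM in sham replicates 1 to 3. Zbtb16, another induced gene, was 5.19, 5.17 and 2.85 FPKM in FDG-increased replicates 1 to 3, against 6.13, 11.3 and 9.14 FPKM in sham replicates 1 to 3. Both, like Klf9, were lower without overlap, with limma adjusted p of 0.562 each. Between the FDG groups 4 of 8 of these genes were lower in FDG-decreased ileum and none separated. Of 13 clock genes, none was called by limma or separated in either comparison, and 1 had an unadjusted p under 0.05, against sham. Of 5 tested amino acid catabolism genes known as Klf15 targets in mouse, 2 were higher and 3 lower in FDG-increased than in sham ileum. Their median log2 difference was -0.09, against 0.13 over all genes. Only Bckdha separated, higher without overlap as 10.7% of all genes were, at 26.7 ± 5.93 against 17.3 ± 1.97 FPKM in sham ileum (SD, n = 3 each). Its limma adjusted p was 0.652.

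Goblet genes stood beside Klf4 in direction. All 8 measured were lower in FDG-decreased than in FDG-increased ileum (median -0.31), though 1 of 8 was lower in every pair and 0 were called by limma with or without the block (0 at an unadjusted p under 0.05 without it). The list summed to 5346 to 8877 FPKM in FDG-decreased ileum, against 7375 to 9918 FPKM in FDG-increased ileum; the part of goblet cells in Klf4 was not tested. Against sham ileum 7 of 8 were higher in FDG-increased ileum (median 0.59), and Zg16, a mucus lectin, and Atoh1, which commits cells to the secretory fate, separated without overlap. Their differences were 1.48 (SE 0.419) and 1.00 (SE 0.308), with limma adjusted p of 0.472 and 0.511. Absorptive cell genes went the other way between the FDG groups: 8 of 10 were higher in FDG-decreased ileum in every pair, and 3 were called with the block. They were Alpi, Apob and Treh, the first 2 named after their values were seen; Treh, which digests trehalose, differed by 1.32 (limma adjusted p with the block 0.00555). Crypt and proliferation genes, the setting of Klf5, had 0 calls by limma in either comparison and 0 with an unadjusted p under 0.05; all 10 were lower in FDG-increased than in sham ileum (median -0.30), and Ascl2, a stem cell factor, was lower without overlap by -0.37 (SE 0.219; limma adjusted p = 0.731). Endothelial genes had 0 calls and 0 unadjusted p under 0.05 too, and Nos3, a nitric oxide synthase, was lower without overlap in FDG-increased than in sham ileum, by -0.45 (SE 0.263; limma adjusted p = 0.725).

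Other markers also separated without overlap, and at most 2 of each list are named. Against sham ileum 10.7% of all genes were higher without overlap in FDG-increased ileum and 4.44% lower. Higher in this way were 4 of 9 T and NK cell, 3 of 7 macrophage and 3 of 4 bile acid genes. Smooth muscle had 1 of 6 each way. Lower were 1 of 6 adipocyte, 1 of 4 fibroblast and 1 of 5 upper intestinal genes. In FDG-increased against sham ileum, the T and NK cell genes Cd7 and Cd8a were higher by 1.64 and 1.11, the macrophage genes Csf1r and Cd68 by 1.302 and 1.11, and the smooth muscle gene Tagln by 0.53. The bile acid genes Fabp6 and Slc51a were higher by 3.88 and 1.51; Fabp6 was 22.6 FPKM in sham replicate 1 and 8375 and 11347 FPKM in sham replicates 2 and 3. Acta2 of smooth muscle differed by -0.51, the adipocyte gene Cidec by -1.02, the fibroblast gene Col1a1 by -0.92 and the upper intestinal hormone gene Gip by -3.07. In FDG-decreased against FDG-increased ileum, Gip and Gata4 of the upper intestine were higher by 2.10 and 2.63, and the macrophage gene Cd14 differed by -0.42. There 3 of 5 upper intestinal genes were higher without overlap, against 1.95% of all genes. Of macrophage genes 1 of 7 was lower in that way, against 1.26%. None of these passed limma without the block. With the block, the fit that called Klf4 and Klf6, 2 of 5 upper intestinal genes were called higher in FDG-decreased ileum (list median 1.795 over the 5). They were Gip (limma adjusted p with the block 0.000318) and Lct, the lactase gene, with a difference of 1.795 (limma adjusted p with the block 0.0191). The part of upper intestinal tissue in the KLF values was not tested.

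Genes with the most similar pattern were found by Pearson's r of log2(FPKM + 1) over the 10 distinct libraries, among 10790 genes. These libraries share lanes, pairs and scaling, and the values are a description. Klf3 was most like Csnk1a1 (r = 0.997) and Herc4 (r = 0.993), and Klf5 most like Snapc3 (r = 0.980) and Papd5 (r = 0.979). Klf6 was most like Cxadr (r = 0.975) and Mier3 (r = 0.974), Klf10 like Ero1lb (r = 0.958) and Zfp322a (r = 0.958), and Klf4 like LOC689065 (r = 0.956) and Mapkapk2 (r = 0.939). Klf15 was most like Acad10 (r = 0.978) and Nkx1-2 (r = 0.948), Klf13 like Arvcf (r = 0.937) and Tbc1d9b (r = 0.934), and Klf2 like Stmn3 (r = 0.931) and Hlx (r = 0.906). Klf9 had the least close neighbours, Lrrc58 (r = 0.857) and Ascl2 (r = 0.857).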

How the data were processed

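Total RNA from rat ileum was sequenced after ribosomal RNA depletion, with stranded libraries, per the labels' protocols. The submitters' processing notes list bcl2fastq 1.8.4, STAR 2.6.0a, Cufflinks 2.2.1, Cuffdiff and DESeq2 1.24.0, and the human build hg19; their settings are not given in the sources used here. Deposited values are taken as FPKM, scaled by the authors within each table; no header states the unit, which is read from the tools listed and the values. Read depth is unknown; ratios of low values showed no common step.

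Of 17145 rows per table, 25 with date-like symbols were left out, and 0 sample columns were unused. Genes averaging 1 FPKM or more over a table were compared as log2(FPKM + 1), which understates changes of low genes. The test was limma 3.58.1 in R 4.3.3 (trend, robust, Benjamini-Hochberg adjustment, threshold 0.05). Only the fit without the replicate block was tried on simulated data, with independent noise. The blocked fit was not. The sham table's FDG-increased columns carry no replicate identity, since their numbers disagree with the other table. Deviations from the group means correlated between libraries that share a label's replicate number in the RYGB table (0.85, 0.76 and 0.77), so fits blocked on that number are given too. In the sham table no such pairing was seen (0.35, -0.50 and -0.25). Members, roles and gene lists were chosen with earlier results of these data known. Named are all 9 members, the other KLF genes past the filter, genes of further lists that passed limma without the block or were the 2 largest differences without overlap in a table, and the 2 genes most similar to each member; list genes called with the block alone are named besides, after their values were seen. Protein sequences were not used here.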

Additional observations from a re-analysis of the deposited data

How the results depend on the processing

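Without the block, limma with Benjamini-Hochberg adjustment called 0 members in any alternative of either comparison. For FDG-decreased against FDG-increased ileum, the replicate block took the count of genes called to 122, to 123 with a pseudocount of 0.1, 101 at the same median, 90 with quantile normalization and 32 with no filter. Blocked limma without trend and robust variances called 72 genes, without Klf4 and Klf6. Without the block, leaving out 1 library gave 0 to 1 genes; leaving out a pair from the blocked fit gave 35, 415 and 346 for pairs 1, 2 and 3. The blocked alternatives beyond the first were chosen after seeing the data. Beyond Klf4 and Klf6, the replicate block over all pairs changed no member's call. In the 20 alternatives Klf2, Klf4, Klf6, Klf9 and Klf15 kept their direction. Their sizes moved: with 1 library left out the range was -1.07 to -0.29 for Klf2, -0.85 to -0.64 for Klf4, -1.42 to -0.48 for Klf6, -0.56 to -0.27 for Klf9 and 0.11 to 0.43 for Klf15; blocked, Klf2 was -1.02 with a pseudocount of 0.1 and Klf9 -0.17 without pair 2. Leaving out 1 library gave -0.39 to 0.17 for Klf10, -0.43 to 0.21 for Klf13, -0.67 to 0.12 for Klf3, -0.34 to 0.048 for Klf5 and -0.0013 to 0.55 for Klf11; blocked, Klf13 was 0.18 without pair 1 and Klf10 0.020 without pair 3. Members without overlap numbered 2 at the same median and 1 to 3 with 1 library left out.

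For FDG-increased against sham ileum, the genes called were 1 with a pseudocount of 0.1, 0 with no filter, 1 at the same median, 0 with quantile normalization, 39 with the replicate block (the numbers do not pair these samples) and 0 to 13 with 1 library left out (0 without FDG-increased replicate 1 or 2 or sham replicate 2, 1 without sham replicate 1, 7 without sham replicate 3, 13 without FDG-increased replicate 3). With FDG-increased replicate 1 as the lone FDG-increased library, 5 members did not overlap. That column has the number of the lane 7 sample, but its lane is not known. With the FDG-increased column that matches the RYGB table library named as the lane 7 sample instead, 5 members did not overlap. A lone FDG-increased library is assumed to vary like sham, and the second choice was made after seeing the data. With FDG-increased replicate 1 alone the values were 0.33 for Klf2, -0.30 for Klf3, -0.29 for Klf5, 0.023 for Klf13 and 0.046 for Klf15, all reversed. With the column that matches the library named as the lane 7 sample, Klf2 was 0.12 and Klf13 0.22, also reversed. Klf5 was -0.15 with quantile normalization and Klf12 0.0099 with a pseudocount of 0.1. Leaving out 1 library gave -0.63 to 0.22 for Klf2, -0.55 to 0.17 for Klf10, -0.11 to 0.64 for Klf3, -0.45 to 0.12 for Klf13, -0.54 to -0.090 for Klf15, 0.039 to 0.60 for Klf5, 0.60 to 1.55 for Klf6 and -0.39 to 0.16 for Klf12. Members without overlap numbered 2 to 4 with 1 library left out. The cause of these changes was not tested, beyond fewer samples. Lane 7 in the RYGB table holds, by column name, 1 library per group and gave no fit.

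For FDG-decreased against sham ileum, values as deposited left 2 members without overlap, Klf9 and Klf2, against 1. Depth is unknown, so no counting error can be given, which bears most on Klf2.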
